A study of Mus musculus with 6 samples.

Results

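The genes described here are the mouse BTG/TOB adaptors Btg1, Btg2, Btg3, Btg4, Tob1 and Tob2, the subunits Pan2 and Pan3 of the PAN deadenylase, and the nuclease gene Parn. These 9 genes were taken by name from the 53700 genes counted in each library, and all 9 passed the filter on low counts, which left 16473 genes tested. PolyA RNA was sequenced from pools of 10 fully grown germinal vesicle (GV) oocytes, the stage at which the oocyte rests in meiotic prophase. Wild-type (Zar +/+) and Zar1 knockout (Zar -/-) oocytes, both on a C57BL/6N background, gave 3 libraries each, and no treatment is named for either group. ZAR1 binds RNA in oocytes, and the study asks how mRNA is stored in a compartment at the mitochondria. The sample titles call the pools of each group biological replicates. Whether the replicate pools came from separate animals is not said, so p-values measure only the spread between these pools. The sources used here do not state the deleted part of Zar1 or the age of the mice.

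Deadenylases shorten the poly(A) tail of an mRNA, which lowers its translation and opens it to decay. The PAN2-PAN3 complex and the CCR4-NOT complex are the main cytoplasmic deadenylases. PAN2 is the nuclease of its complex, and PAN3 is the adaptor that holds PAN2 on poly(A)-binding protein and on the TNRC6 proteins of microRNA silencing. BTG and TOB proteins share an N-terminal BTG domain that binds the CCR4-NOT nucleases CNOT7 and CNOT8, and TOB proteins also bind poly(A)-binding protein. PARN is a separate poly(A)-specific ribonuclease with known roles in trimming nuclear noncoding RNAs. In the mouse, BTG4 is made when the oocyte matures, from an mRNA that is stored at the GV stage, and licenses the decay of maternal mRNA by bringing CCR4-NOT to it.

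The 3' ends of the Btg4, Pan2, Pan3 and Tob2 mRNAs are shown because a stored oocyte mRNA is polyadenylated through short elements there. The last 100 bases of the annotated transcript of each gene (GENCODE M21, built on GRCm38) were searched on the mRNA strand for the cytoplasmic polyadenylation element, written TTTTAT or TTTTAAT, and for the nuclear polyadenylation signal, written AATAAA or ATTAAA. Each site below runs 5' to 3' over 30 bases, with every match in capitals.
Btg4, later 3' end: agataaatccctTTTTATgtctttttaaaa
Btg4, earlier 3' end: aaaaTTTTATgaacactagtgaatataggt
Btg4, earlier 3' end, signal: tgccggtgataaAATAAAatgaattatagg
Pan2: atgTTTTATaaAATAAAagtatTTTTATct
Pan3: ttTTTTAATAAAgaattgcagaAATAAAct
Tob2: ttttaagtttgtATTAAAagcatgatatat
In Pan3 the element TTTTAAT and the signal AATAAA share bases, so they appear as a single run of capitals. In Pan2 the signal lies between a pair of elements, and another element begins 72 bases from the end. Btg4 has annotated transcripts with 2 different ends behind the same stop codon. The earlier end carries an element that begins 96 bases from it and a signal that begins 30 bases from it. The later end carries an element that begins 67 bases from it and no signal. Tob2 had a signal that begins 22 bases from the end and no element in this window. Btg2, whose end is not shown, had no element and no signal in it. Over the principal transcripts, 4 of the 9 genes (Btg3, Btg4, Pan2 and Pan3) had an element in the window and 7 had a signal. The same window held an element in 19.7% and a signal in 81.5% of the 12179 tested protein-coding genes with a 3' UTR at least that long. A match describes letters only, and the ends used by these oocytes were not measured.

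The libraries held between 32126555 and 39148833 counts assigned to genes. Zar1 itself had between 12810 and 15245 counts in wild type and between 69 and 226 in the knockout, which checks the labels. The 16 oocyte markers examined summed to between 19270 and 20650 CPM in wild type and between 21980 and 23880 in the knockout. Beside 33.4% of all tested genes, 73.3% of the 15 tested markers were called, 9 higher and 2 lower. Bmp15, an oocyte-secreted growth factor and the most abundant of them in wild type, fell from 3104 ± 221 to 2481 ± 292 CPM (adjusted p = 0.0281), while Nobox, an oocyte transcription factor gene, rose from 155 ± 8.15 to 414 ± 18.5 CPM (adjusted p = 1.15e-05) (CPM is the usual per-library scaling of counts, here with TMM factors, and values are the mean ± SD of 3 libraries throughout). The 17 granulosa and cumulus markers summed to 109.6 to 119 CPM in wild type and 133.6 to 138 in the knockout. Of these, 7 stayed under 1 CPM in every library, the granulosa-defining genes Foxl2 and Amh among them. Most of the sum came from Nr5a2, a nuclear receptor gene, at 51.8 CPM in wild type and 77.9 in the knockout, and from Cyp19a1 (aromatase) at 47.8 and 42.9. Some of the other markers, named after their values were seen, were uneven between libraries. Fshr had 1.26 CPM in knockout replicate 2 and 0 in knockout replicates 1 and 3. Cyp11a1 was highest in knockout replicate 3 (6.13 CPM), as were Inhbb (2.19) and Hsd3b1 (2.11). Hsd17b1 was highest in wild-type replicate 2 (4.34 CPM). The 10 theca and stroma markers, led by Star, summed to at most 3.51 CPM, and 8 of them stayed under 1 CPM in every library. The 10 blood and endothelium markers summed to 27.8 to 31.1 CPM in wild type and 33.5 to 37.3 in the knockout, most of it Pecam1 (24.2 CPM in wild type and 30.6 in the knockout). Of the 12, 4 and 4 tested genes of these 3 lists, 25%, 25% and 50% were called, beside 33.4% of all tested genes. In the 3 lists, 3 were called higher (Nr5a2, Pecam1 and Has2, the last from 1.74 to 4.60 CPM) and 3 lower. The lower ones were Kitl (4.02 to 0.797 CPM), Pdgfra (0.661 to 0.0471 CPM) and Vwf (0.764 to 0.240 CPM). The part of these other markers in the results below was not tested. Levels are relative to the rest of a library, so fewer mRNA molecules per oocyte and a smaller share of the mRNA cannot be told apart. PolyA RNA was sequenced and tail lengths were not measured. A change in the capture of an mRNA as polyA RNA therefore cannot be told apart from these either.

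In oocytes without Zar1, Pan3 mRNA stood at 0.520 of its wild-type level, Btg2 mRNA was also lower, and Tob2 mRNA was higher. The most abundant of the 9 mRNAs, Btg4, was at nearly the same mean level in both groups. Of the 9 genes, 1 was called higher and 2 lower in the knockout at an adjusted p of 0.05 (edgeR's quasi-likelihood test, Benjamini-Hochberg adjustment over all tested genes). Over all tested genes 14.9% were called higher and 18.5% lower, 33.4% in all, and the share among the 9 genes was 33.3%. Of all calls 44.5% were higher, against 50.3% with upper-quartile factors and 50.4% with GC and length offsets. The groups did not overlap in 5 of the 9 genes, against 47.8% of all tested genes. The number of changed genes in this family was therefore close to the background of this comparison, and the description below concerns which members moved and by how much.

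**Figure D1:**
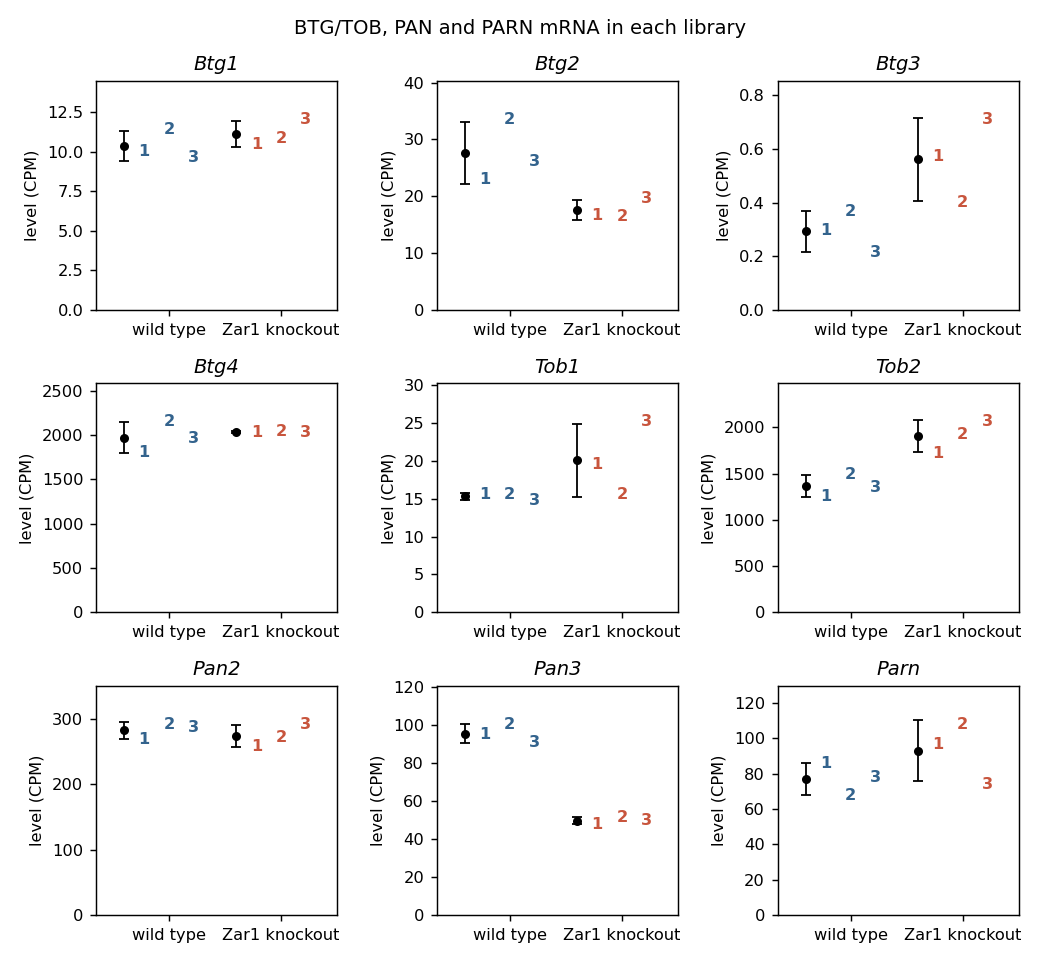
Level of each of the 9 mRNAs in CPM (vertical axes from 0, a separate scale for each gene) in wild-type and Zar1 knockout libraries. Coloured digits are the replicate numbers, and black points with bars are the mean ± SD of 3 libraries. The groups stand clearly apart for Pan3 and Tob2, while the Btg4, Pan2, Btg1 and Parn groups overlap.

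Among the adaptors, Btg4 (ENSMUSG00000032056.11, chromosome 9) was by far the most abundant. It had 1804, 2150 and 1956 CPM in wild-type replicates 1, 2 and 3 and 2023, 2042 and 2032 CPM in knockout replicates 1, 2 and 3. The 3 knockout libraries lay within the wild-type range and closer together than the wild-type libraries. The log2 fold change of the knockout over wild type was 0.04 ± 0.07 (SE, edgeR adjusted p = 0.681), and the 95% interval of the ratio ran from 0.919 to 1.16. Leaving out wild-type replicate 1 turned the sign (-0.02), and the largest value over all alternatives was 0.18 (adjusted p = 0.104), with offsets for GC and length. Ranked by CPM among all tested genes, Btg4 was number 36 in wild type and number 33 in the knockout. In wild type it was number 21 of 16430 genes when the level was divided by transcript length.

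Tob2 (ENSMUSG00000048546.9, chromosome 15), which encodes an antiproliferative adaptor that also binds poly(A)-binding protein, was the second most abundant member. Its level was 1250, 1490 and 1354 CPM in wild-type replicates 1, 2 and 3, and 1723, 1929 and 2063 CPM in knockout replicates 1, 2 and 3. Every knockout library lay above every wild-type library, with knockout replicate 1 the nearest to wild type. Tob2 rose from a mean of 1365 ± 120.4 to 1905 ± 171 CPM, a 1.40-fold increase (log2 fold change 0.48 ± 0.09, adjusted p = 0.00367). The increase is too small to pass a test against a 1.5-fold change (adjusted p = 1), and it stayed under 0.05 without any single library (highest adjusted p = 0.0221). By CPM Tob2 was number 73 of all tested genes in wild type and number 43 in the knockout.

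Tob1, the paralog of Tob2, was a minor mRNA in these oocytes. It had 15.6, 15.5 and 14.8 CPM in wild type and 19.5, 15.6 and 25.1 CPM in knockout replicates 1, 2 and 3. The wild-type libraries were tight, while the knockout libraries were spread, and knockout replicate 2 (15.59 CPM) was only just above the highest wild-type library (15.58 CPM). The log2 fold change was 0.39 ± 0.17 (adjusted p = 0.118), and the 95% interval of the ratio ran from 0.998 to 1.73. Without knockout replicate 2 it passed the threshold (0.56, adjusted p = 0.0275), and it also passed with GC and length offsets (0.53, adjusted p = 0.0465). Without knockout replicate 3 it was 0.20 (adjusted p = 0.326).

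Btg2 (ENSMUSG00000020423.7, chromosome 1), a p53-induced and growth factor-induced antiproliferative gene, fell. It had 23.03, 33.6 and 26.2 CPM in wild-type replicates 1, 2 and 3 and 16.7, 16.5 and 19.6 CPM in knockout replicates 1, 2 and 3. All 3 knockout libraries lay below the lowest wild-type library, and wild-type replicate 2 was the highest. The mean fell from 27.6 ± 5.40 to 17.6 ± 1.72 CPM, a 1.57-fold decrease (log2 fold change -0.65 ± 0.16, adjusted p = 0.0131). Without wild-type replicate 2 the change was -0.49 with an adjusted p of 0.0498, just inside the threshold. At a stricter threshold of 0.01 it was not called.

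Because Btg2 is also an immediate early gene, 17 genes of that class were examined beside it. Of 12 tested, 3 were higher, 3 lower and 6 not called, with a median log2 fold change of 0.25 against 0.00745 over all tested genes. The share called was 50%, beside 33.4% of all tested genes. The transcription factor genes Fosb (log2 fold change -1.40 ± 0.28, adjusted p = 0.00555) and Fos (-2.24 ± 0.57, adjusted p = 0.016) fell, both from low levels of 3.19 and 1.36 CPM in wild type. The higher ones, named after their values were seen, were Junb (log2 fold change 1.24), Klf2 (0.58) and Dusp1 (0.37), with adjusted p-values of 0.0273, 0.0347 and 0.025. No member of the class was called higher without wild-type replicate 1, wild-type replicate 3 or knockout replicate 3. A single member was called lower without wild-type replicate 2 or 3.

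Btg1 and Btg3 were the least abundant of the adaptors. Btg1, an antiproliferative gene of resting lymphoid and other cells, had 10.0, 11.4 and 9.64 CPM in wild type and 10.5, 10.8 and 12.04 CPM in knockout replicates 1, 2 and 3. The groups overlapped (log2 fold change 0.10 ± 0.15, adjusted p = 0.639), with a 95% interval of the ratio from 0.853 to 1.35. Btg3 had only 12, 13 and 7 counts in wild type and 20, 15 and 26 in the knockout, or 0.294 ± 0.0766 and 0.562 ± 0.155 CPM. Every knockout library had more than every wild-type library, but the change did not pass (log2 fold change 0.92 ± 0.44, adjusted p = 0.141), and the interval of the ratio ran from 0.952 to 3.77. Exons of Btg3 share 695 bases with exons of Cxadr, a cell adhesion gene on the opposite strand, which had 125, 55 and 46 counts in wild type and 182, 149 and 270 in the knockout. Whether the counting used strand is not stated in the labels. Without strand, reads at those bases would fall in both genes and be tallied apart from either, so the Btg3 counts may be incomplete.

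A gene annotated as a Btg1 copy, Btg1-ps1 on chromosome X, did change, and was singled out after its values were seen. It had 436, 340 and 302 counts in wild type and 80, 90 and 78 in the knockout (log2 fold change -2.12, with every alternative between -2.19 and -2.06). Its annotated transcript aligned to Btg1 mRNA over 502 columns with 86.9% identity, and the longest identical run was 35 bases. No stretch of 50 bases of the Btg1 mRNA occurs in it. The coding window below is the gap-free 60-base stretch with the most differences, and is shown because such differences let reads be assigned to Btg1 or to the copy. Differing bases are in capitals.
Btg1: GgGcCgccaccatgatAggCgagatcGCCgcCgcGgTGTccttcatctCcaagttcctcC
Btg1-ps1: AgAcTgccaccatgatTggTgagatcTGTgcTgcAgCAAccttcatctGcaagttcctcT
The window holds 15 mismatches. Btg1 and Btg1-ps1 thus gave separate values here, with no call for Btg1.

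Pan3 (ENSMUSG00000029647.16, chromosome 5) had the smallest adjusted p of the 9 genes. It had 3820, 3536 and 2943 counts in wild-type replicates 1, 2 and 3 and 1664, 1914 and 1815 in knockout replicates 1, 2 and 3. On the CPM scale these were 94.9, 100.3 and 90.7 against 47.6, 51.4 and 49.7. The lowest wild-type library was far above the highest knockout library. Pan3 fell 1.92-fold (log2 fold change -0.94 ± 0.08, adjusted p = 7.45e-05, 95% interval of the knockout over wild-type ratio 0.458 to 0.591). It was called under every alternative run, including the test against a 1.5-fold change (adjusted p = 0.0044), with log2 fold changes between -0.98 and -0.74. Of all tested genes, 12.1% had a more negative fold change.

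Pan2 (ENSMUSG00000005682.10, chromosome 10), the catalytic partner of Pan3, had 268.5, 292.1 and 287.8 CPM in wild type and 257.9, 272.3 and 292.5 CPM in knockout replicates 1, 2 and 3. The groups overlapped almost completely. The log2 fold change was -0.04 ± 0.07 (adjusted p = 0.689), with a sign that turned under upper-quartile factors (0.01), with GC and length offsets (0.03) and without knockout replicate 1 (0.01). The 95% interval of the ratio ran from 0.862 to 1.09, which does not reach the 1.92-fold decrease of Pan3.

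The mRNA of the adaptor subunit was thus scarcer relative to that of the nuclease subunit in each knockout library. The ratio of Pan3 to Pan2 per kilobase of transcript was 0.292, 0.284 and 0.261 in wild-type replicates 1, 2 and 3 and 0.153, 0.156 and 0.141 in knockout replicates 1, 2 and 3, without overlap. The difference in the log2 ratio was -0.90, from a wild-type mean of -1.84 ± 0.09 to a knockout mean of -2.74 ± 0.08 (SD). An exact two-sided permutation test gave p = 0.1, the lowest that this design of 3 against 3 can reach. With Pan3 already apart between the groups and Pan2 not, this ratio restates their values and adds no separate support. The difference was between -0.95 and -0.85 when single libraries were left out.

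**Figure D2:**
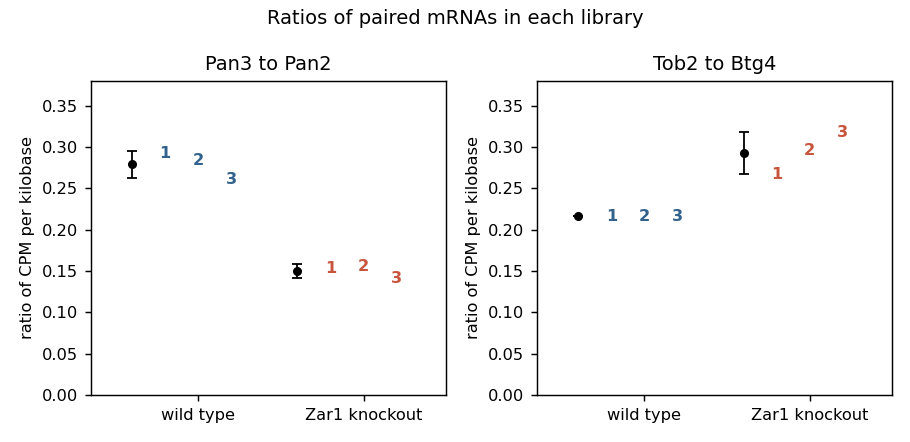
Ratio of Pan3 to Pan2 (left) and of Tob2 to Btg4 (right), each in CPM per kilobase (vertical axes from 0), in wild-type and knockout libraries. Coloured digits are replicate numbers, and black points with bars are mean ± SD of 3 libraries. The Pan3 to Pan2 ratio is lower in every knockout library, and the Tob2 to Btg4 ratio is higher in every knockout library.

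Parn, the poly(A) nuclease gene of the set that lies outside the PAN complex, varied between libraries in both groups. It had 85.8, 67.7 and 77.6 CPM in wild type and 96.4, 108.0 and 74.0 CPM in knockout replicates 1, 2 and 3. Knockout replicate 3 lay inside the wild-type range, and knockout replicates 1 and 2 lay above it. The log2 fold change was 0.27 ± 0.14 (adjusted p = 0.186), with an interval of the ratio from 0.962 to 1.51. Without knockout replicate 3 it was 0.41 and passed the threshold (adjusted p = 0.0262), while without knockout replicate 2 it was 0.15 (adjusted p = 0.452) and without wild-type replicate 2 it was 0.18 (adjusted p = 0.463).

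**Figure D3:**
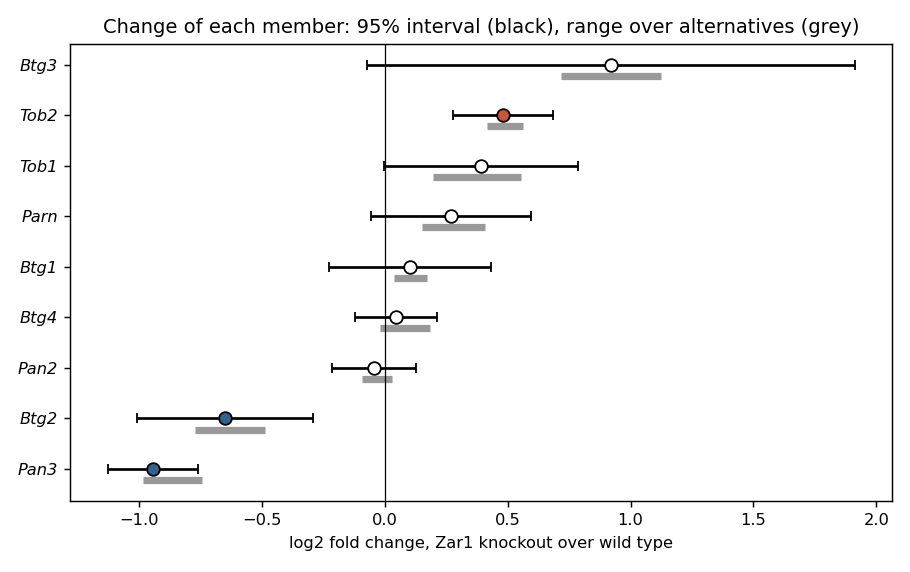
Log2 fold change of the knockout over wild type (horizontal axis) for each of the 9 genes, with its 95% interval in black and the range over the alternative settings as a grey bar. Filled points passed the adjusted p of 0.05. Pan3 (-0.94) and Btg2 (-0.65) lie left of 0 with their whole intervals and Tob2 (0.48) right of it.

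Divided by transcript length, the 9 mRNAs spanned several orders of magnitude. In wild type the order per kilobase was Btg4 at 1518 ± 134 CPM per kilobase, Tob2 at 329 ± 29.0, Pan2 at 64.6 ± 2.88, Parn at 26.5 ± 3.12, Pan3 at 18.0 ± 0.911, Btg2 at 10.1 ± 1.97, Tob1 at 6.68 ± 0.188, Btg1 at 3.65 ± 0.328 and Btg3 at 0.208 ± 0.0542. The ranges of neighbours in that order did not overlap. In the knockout the level of Pan3 was 9.36 ± 0.351 CPM per kilobase and that of Tob1 was 8.77 ± 2.10. The knockout ranges of Pan3 and Tob1 overlapped, as did those of Tob1 and Btg2 (6.41 ± 0.625), so the order of these neighbours was not resolved there. Lengths were the mean over a gene's annotated coding transcripts. With the union of all exons in place of that length, Pan3 (6.37 CPM per kilobase in wild type) lay below Btg2, and its range overlapped that of Tob1.

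**Figure D4:**
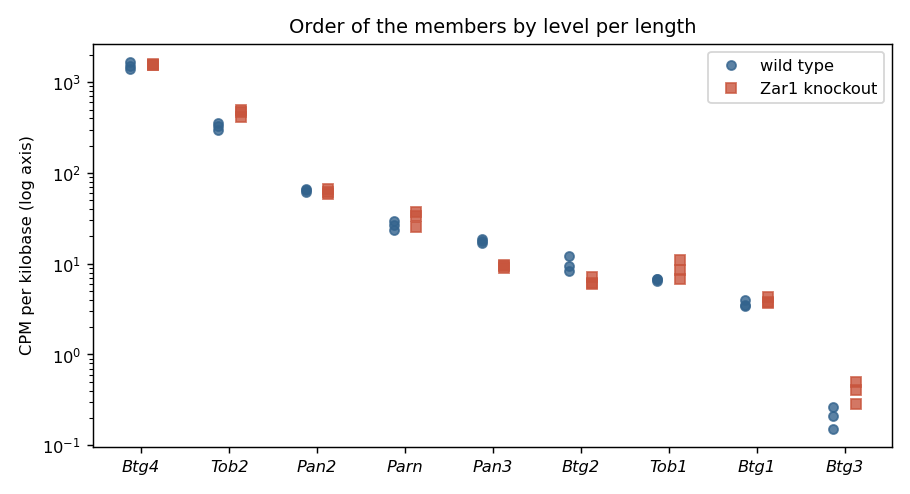
Level per length of each gene in CPM per kilobase (log axis), with 1 point per library, blue circles for wild type and red squares for the knockout. Genes are ordered by their wild-type mean, from Btg4 at 1518 to Btg3 at 0.208 CPM per kilobase.

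Btg4 and Tob2 together made up nearly all of the BTG/TOB mRNA per length. Btg4 accounted for 81.3 ± 0.0424% of the summed level of the 6 adaptors in wild type and 76.6 ± 1.58% in the knockout. Tob2 accounted for 17.6 ± 0.0013% and 22.4 ± 1.51%. Each of the remaining adaptors held at most 0.6001% in any library. The ratio of Tob2 to Btg4 per kilobase was 0.217, 0.217 and 0.217 in wild type and 0.266, 0.295 and 0.318 in knockout replicates 1, 2 and 3. Within the TOB pair, the Tob2 level per kilobase was 49.2 ± 4.52 times that of Tob1 in wild type and 54.1 ± 12.4 times in the knockout.

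The genes around these adaptors and nucleases were examined as lists, which overlap in part. Of the 11 CCR4-NOT genes, 2 were higher, 2 lower and 7 not called, with a median log2 fold change of 0.02. Calls made up 36.4% of them, beside 33.4% of all tested genes. The nuclease gene Cnot8, which BTG and TOB proteins bind, rose by 0.33 ± 0.07 on the log2 scale (adjusted p = 0.00558), between means of 349 ± 12.8 and 439.7 ± 19.3 CPM. The nuclease gene Cnot6 fell from 81.9 ± 2.56 to 45.7 ± 8.13 CPM (-0.84 ± 0.12, adjusted p = 0.00111). Their paralogs were named after their values were seen. Cnot7 had 455 ± 11.96 and 434 ± 2.94 CPM (adjusted p = 0.429), and Cnot6l had 1144 ± 8.60 and 1092 ± 69.1 CPM (adjusted p = 0.475). Without wild-type replicate 1 or 3 only 1 of the 11 was called higher. With GC and length offsets 7 of the 11 were called higher, under which 2618 of all tested genes were higher and 2572 lower.

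Proteins that bind particular mRNAs and recruit deadenylases to them formed a list of 19 genes, of which 17 were tested. Of these, 8 were lower, 1 higher and 8 not called, with a median of -0.24. The share called was 52.9%, beside 33.4% of all tested genes (18.5% lower and 14.9% higher). Tnrc6b, a TNRC6 protein gene of the microRNA pathway that recruits both PAN2-PAN3 and CCR4-NOT, had 109.0, 105.1 and 92.0 CPM in wild type and 43.95, 42.3 and 48.9 CPM in knockout replicates 1, 2 and 3. It fell by 1.18 ± 0.10 on the log2 scale (adjusted p = 6.34e-05). Nanos1, a germ cell translational repressor gene, fell by 1.35 ± 0.11 on the log2 scale (adjusted p = 6.78e-05), from 53.4, 51.9 and 48.1 CPM in wild type to 21.4, 17.5 and 21.4 CPM in the knockout. Of the other TNRC6 genes, named after their values were seen, Tnrc6a fell from 36.8 ± 3.28 to 24.4 ± 1.48 CPM (adjusted p = 0.00356) and Tnrc6c was not called (adjusted p = 0.566). Over the 18 alternatives at the same threshold between 7 and 9 of the recruiter genes were called lower. With GC and length offsets 7 were lower and 2 higher. The count of higher ones was 0 without wild-type replicate 1, and it was 2 without knockout replicate 2.

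Of the 12 tested genes for poly(A)-binding proteins and their partners, 3 were higher, 2 lower and 7 not called, with a median of 0.06. These calls made up 41.7% of the list's tested genes, beside 33.4% of all tested genes. Pabpc1 encodes a cytoplasmic poly(A)-binding protein to which PAN3 and TOB proteins bind. It had 41.2, 26.2 and 25.6 CPM in wild type and 169.7, 143.9 and 158.0 CPM in knockout replicates 1, 2 and 3. It rose 5.06-fold (log2 fold change 2.34 ± 0.18, adjusted p = 4.5e-05), with a wide gap between the groups. Pabpc1l, named after its values were seen, was more abundant than Pabpc1 in both groups. It rose from 187.9 ± 6.39 to 226.9 ± 19.85 CPM (adjusted p = 0.0306). Larp1, which binds the mRNAs of the translation machinery, rose from 10.4 ± 0.677 to 20.9 ± 0.674 CPM (adjusted p = 0.000458). A further list held 6 genes grouped as other poly(A) nucleases, and whether their products shorten poly(A) tails was not measured. Among these genes 1 was higher (Noct, 759.5 ± 26.8 to 915 ± 33.4 CPM, adjusted p = 0.0114), 1 lower (Angel2, 884 ± 58.4 to 748 ± 43.2 CPM, adjusted p = 0.0358) and 4 not called. Their median was -0.20. At 33.3%, the share called was close to the 33.4% of all tested genes. No gene of this list was called higher without wild-type replicate 1. None was called lower with RLE or upper-quartile factors, nor after dropping wild-type replicate 2, wild-type replicate 3, knockout replicate 1 or knockout replicate 2.

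Of 12 factors that act with or beside BTG4 in maternal mRNA decay, 1 was higher, 3 lower and 8 not called. Their median was -0.07, and 33.3% were called, beside 33.4% of all tested genes. The decapping enzyme gene Dcp2 fell by 1.45 ± 0.11 on the log2 scale (adjusted p = 4.27e-05), between means of 104.7 ± 13.5 and 38.2 ± 2.24 CPM. Leaving out knockout replicate 2 gave 2 higher, and 5 of the genes on this list were called higher with GC and length offsets. Among the 12 tested genes for poly(A) and uridyl polymerases, which lengthen or tag 3' ends, 1 was higher, 4 lower and 7 not called. Their median was -0.11, and 41.7% were called, beside 33.4% of all tested genes. Tent5d fell from 2.93 ± 0.616 to 0.872 ± 0.0688 CPM (adjusted p = 0.00214) and Papolg from 102.9 ± 1.98 to 73.3 ± 6.00 CPM (adjusted p = 0.00253). With GC and length offsets 2 of the polymerase genes were called lower.

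**Figure D5:**
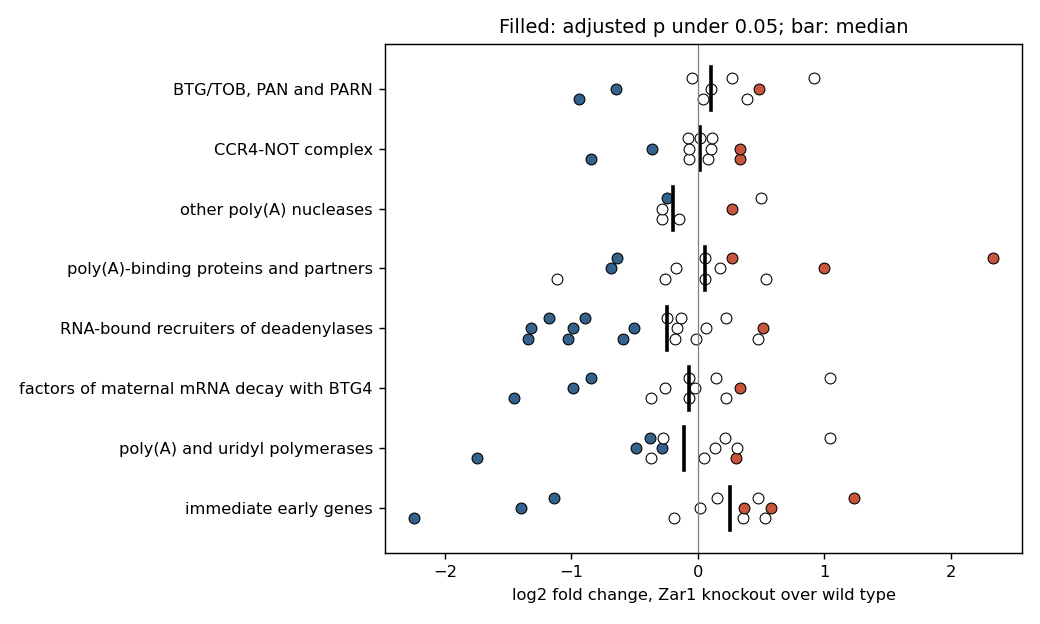
Log2 fold change of the knockout over wild type (horizontal axis) for each tested gene of the 9-gene set and of the 7 related lists. Filled points passed the adjusted p of 0.05 (blue lower, red higher), open points did not, and the black bar is the list's median. The recruiter list has 8 blue points and 1 red point, and the rightmost point is Pabpc1 at 2.34.

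The genes whose pattern over the 6 libraries was most like that of Btg4 were Zcchc10 (Pearson r = 0.967 of log2 CPM), Slc35b3 (0.966) and Mdc1 (0.962), among 7704 genes with a mean of at least 10 CPM. Like Btg4 they were lowest in wild-type replicate 1 and highest in wild-type replicate 2. The genes most like Pan3 were Zfp322a (r = 0.999), Sprtn (0.998) and Dcp2 (0.998). With Pan3, which differs between the groups, 106 genes had r above 0.99, and with Btg4 none (0) had. These are descriptions over 6 libraries, 3 of each genotype, so a gene that differs between the genotypes as Pan3 does has a high r with it.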

How the data were processed

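Counts per gene were deposited by the authors for each of 6 polyA libraries. The submitters' processing notes name bcl2fastq 2.20.0.422, cutadapt 2.8, STAR 2.7.8a, HTSeq 0.13.5 and the mm39 build. Their annotation release, strand setting and filters are not stated there. Reads in more than 1 gene (4.21% to 4.42% of reads counted) or with more than 1 alignment (13.9% to 15.0%) were tallied apart from the genes and, with the other summary rows (reads outside genes, 4.84% to 5.70%), left out of library sizes and tests. Symbols, lengths and 3' end sequences came from GENCODE M21 (GRCm38) and its name table, which named 52093 of 53700 genes. That build differs from mm39, so no coordinates are printed. No pair of libraries within a group agreed within sampling noise (chi-square over its degrees of freedom 12.8 to 39.9).

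The effect of genotype came from edgeR 4.0.16, run in R 4.3.3 (TMM, filterByExpr, glmQLFit, glmQLFTest, two-sided, adjusted p of 0.05). Standard errors are the absolute log2 fold change over the square root of F. The steps were tested on simulated counts. Alternatives used other scaling factors, filters and thresholds, DESeq2 1.42.0, limma 3.58.1 (voom), the replicate block, GC and length offsets, and leaving out each library. Sequences were aligned with Biopython 1.88 in Python 3.11.15. The named genes are the 9 genes, Zar1, up to 2 called genes with the smallest adjusted p of each of 7 lists, the most abundant wild-type gene of each of 4 marker lists, and the 3 genes most like Btg4 and Pan3 (log2 of CPM + 0.01). Other genes are marked as chosen later or named beside a result they bear on (Cxadr and the other cell type markers). The genes and lists were chosen with earlier results of these data known.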

Additional observations from a re-analysis of the deposited data

How the results depend on the processing

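Pan3 was called lower under all 20 alternatives, and Btg4, Pan2 and Btg1 were not called under any of them. Tob2 was not called in the test against a 1.5-fold change, nor was Btg2 there (adjusted p = 0.565) or at an adjusted p of 0.01. Of the 9 genes, none (0) was called higher and 1 lower in the test against a 1.5-fold change, 1 was called lower at an adjusted p of 0.01, and 2 were called higher after the GC and length offsets. Without single libraries 1 to 2 were called higher and 2 lower. Over all tested genes, 417 were higher and 1067 lower against a 1.5-fold change and 1171 and 1861 at an adjusted p of 0.01. Leaving out single libraries gave 1541 to 2509 higher and 2285 to 3125 lower, with the lowest count of higher genes without wild-type replicate 3. Over all tested genes the median change (log2) lay between -0.0288 and 0.0568 under the scaling alternatives. The Btg4 share of the adaptors' level per kilobase was 79.2% in wild type and 74.2% in the knockout with the longest transcript, and 77.5% and 72.4% with the union of exons. With the replicate block, 1 of the 9 genes was higher and 2 lower, and 2078 and 2760 of all genes. Deviations of same-numbered libraries correlated at -0.00898, -0.042 and -0.0252, so no effect shared by same-numbered libraries was visible. Whether same-numbered pools were collected or prepared together is not stated, and these values cannot decide it. Btg3 (at most 26 counts) is limited by depth and had no value under the filter on a mean CPM of at least 1.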

Other observations

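The ratio of Tob2 to Btg4, on the CPM scale, was 0.693, 0.693 and 0.692 in the wild-type libraries, a spread (SD 0.000325) smaller than the counting error of a single library (0.00393 to 0.0043). In the knockout it was 0.852, 0.945 and 1.01, with counting errors of 0.00473 to 0.00525. The ratio was chosen after its values were seen, and no test was run on it. The Btg4 level per kilobase was 152.9 ± 15.7 times that of Btg2 in wild type and 246 ± 22.8 times in the knockout.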
